A study of Homo sapiens with 6 samples.

Results

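The salt-inducible kinases (SIKs) and the early genes driven by the cAMP response element-binding protein (CREB) were examined in RNA-seq data from human immortalized cardiomyocytes with and without knockdown of CIRBP, the cold-inducible RNA-binding protein. The set has 10 members, of 58884 genes measured: SIK1, SIK1B, SIK2, SIK3, CRTC2, CREM, PDE4D, NR4A1, NR4A2 and NR4A3. They were picked by gene name with earlier results of these libraries known, among them the differences of SIK1 and SIK1B between the groups. The differences of the members are therefore given as a description, without a p-value. The NC group received negative control siRNA (3 libraries) and the SiCIRBP group siRNA against CIRBP (3 libraries), with no other agent named for either. All libraries are labelled T0519, while the study's text speaks of AC16 for its RNA-seq, and both are immortalized human ventricular cardiomyocyte lines. The study set NC_1 and SiCIRBP_2 aside because they differed most from the other libraries of their groups, so each difference is given for the 4 libraries it kept (NC_2, NC_3, SiCIRBP_1 and SiCIRBP_3) and for all 6.

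SIKs are kinases of the AMPK family that are switched on by LKB1 and held back by protein kinase A (PKA). Active SIKs phosphorylate the CREB coactivators of the CRTC family and keep them in the cytoplasm. When cAMP rises, PKA phosphorylates both CREB and the SIKs, the CRTCs enter the nucleus, and CREB target genes are transcribed within a short time. SIK1 is itself such a target and feeds back on the pathway, as do PDE4D, which degrades cAMP, and CREM, whose short product ICER represses CREB sites. NR4A1, NR4A2 and NR4A3 are orphan nuclear receptors and classic early CREB targets.

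SIK1 and SIK1B have to be read together, because their transcripts are almost the same sequence. SIK1 lies on chromosome 21 of GRCh38 (chr21:43414483-43427189, minus strand) and SIK1B on the same chromosome (chr21:6111134-6123739, plus strand). The main transcript of each has 14 exons in GENCODE 29. The whole of the SIK1B transcript (4705 bases) aligned to that of SIK1 (4805 bases) without a gap and with 7 substitutions, which is an identity of 99.85%. Of these substitutions, 5 lie in the 3' UTR and 2 in the coding sequence. The 2 coding ones are C1977T and C1981T, with the SIK1 base first and the position counted from the first base of the SIK1B transcript. They lie in exon 13, and the stretch that holds them is shown because it is the only coding sequence that differs between the main transcripts (capitals mark the differing bases, SIK1 at chr21:43417653-43417693 on the minus strand, SIK1B at chr21:6120568-6120608 on the plus strand).
SIK1: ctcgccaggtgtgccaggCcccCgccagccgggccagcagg
SIK1B: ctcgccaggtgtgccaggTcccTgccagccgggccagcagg
Among all annotated transcripts of SIK1B, 96.29% of the 31-base words also occur in SIK1. The division of reads between both genes is hence an estimate, and SIK1 received between 53.96% (NC_1) and 60.35% (SiCIRBP_2) of the added count. The added count does not depend on that division.

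CREB binds the cAMP response element (CRE), the palindrome TGACGTCA, and also its core TGACG. Both strands were searched in RefSeq promoter windows (GRCh38.p14), each from 250 bases before to 50 bases after an annotated start. A match is a description of the letters and not evidence of binding. Windows were found for 7 of the members (SIK1, SIK2, SIK3, CREM, PDE4D, NR4A1 and NR4A3). Of all 35116 windows, 24.55% hold the core in either direction and 1.85% the full palindrome, which contains the core on both strands. Upstream of SIK1, the core occurred 3 times, all on the opposite strand. Upstream of SIK3 it occurred 2 times, and NR4A3 had 4 matches, of which 3 lie before the earliest annotated start. These upstream sequences are shown because they belong to a kinase of the family and to early genes whose counts differed between the groups (capitals mark the core, written CGTCA where it is on the opposite strand). They end before the earliest annotated start and cover chr21:43427190-43427381 (minus strand), chr11:117098438-117098678 (minus strand) and chr9:99821635-99821854 (plus strand).
SIK1: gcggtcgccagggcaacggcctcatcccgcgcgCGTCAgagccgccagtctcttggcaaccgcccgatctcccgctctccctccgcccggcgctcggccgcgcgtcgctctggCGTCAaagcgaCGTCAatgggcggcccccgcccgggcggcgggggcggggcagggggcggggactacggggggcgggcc
SIK3: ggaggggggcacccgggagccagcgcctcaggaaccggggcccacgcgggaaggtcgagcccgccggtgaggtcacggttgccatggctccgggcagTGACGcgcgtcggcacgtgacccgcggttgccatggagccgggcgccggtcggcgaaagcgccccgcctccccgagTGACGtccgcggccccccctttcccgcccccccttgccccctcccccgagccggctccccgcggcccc
NR4A3: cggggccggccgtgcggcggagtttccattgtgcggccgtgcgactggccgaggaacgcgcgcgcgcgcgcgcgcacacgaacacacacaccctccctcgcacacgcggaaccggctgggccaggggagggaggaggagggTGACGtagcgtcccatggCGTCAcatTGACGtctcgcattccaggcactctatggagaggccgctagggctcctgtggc
CREM was the member with a full palindrome. It lies at a start inside the gene, from which short transcripts are annotated, in 2 windows that overlap, and the 30 bases around it at chr10:35195841-35195870 (plus strand) are shown with the palindrome in capitals.
CREM: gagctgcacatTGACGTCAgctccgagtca
The core was present at 3 of 7 annotated starts of CREM, at 1 of 8 starts of PDE4D and at the start of SIK2 (2 matches). At the 2 annotated starts of NR4A1 no core was found, which says only that these letters are not in those windows.

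**Figure D1:**
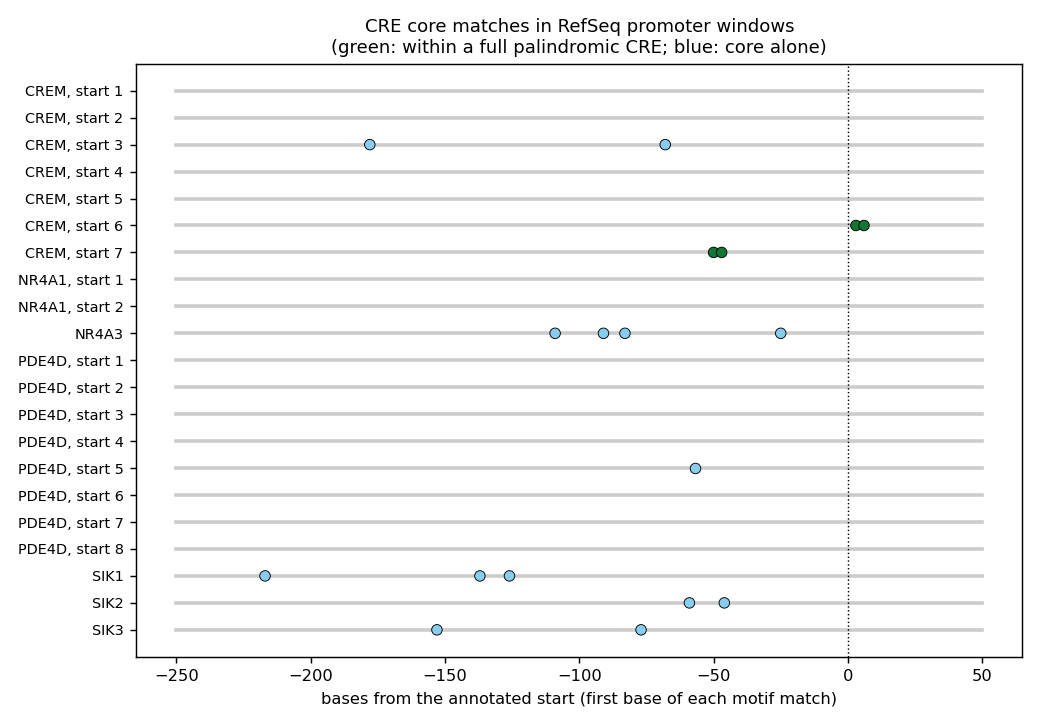
Matches to the CRE core in the RefSeq promoter windows of 7 members. Each grey line is 1 window, the x axis is the distance in bases from the annotated start, green points belong to a full palindrome and blue points are cores alone. CREM holds both windows with the full palindrome, and NR4A3 holds 4 cores.

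Library totals lay between 25726259 and 29919566 estimated counts, and values per library are given in CPM, a read count normalised to library size with TMM scaling. CIRBP, the target of the siRNA, was at 86.4, 85.8 and 90.95 CPM in NC_1, NC_2 and NC_3 and at 54.8, 24.3 and 46.3 in SiCIRBP_1, SiCIRBP_2 and SiCIRBP_3. Its 6 values separated by group. CIRBP was at 57.2% of the NC level over the 4 kept libraries and at 47.7% over all 6. In TPM, which accounts for transcript length, the NC libraries were at 134.4, 133 and 149 for CIRBP. The SiCIRBP libraries were at 62.1, 22.5 and 57.75 TPM, a larger difference than in CPM. The label of the cells was checked against 14 cardiomyocyte markers, of which 10 stayed under 1 CPM in every library, among them TNNT2, MYH6, MYH7 and ACTC1. GATA4 (between 47.4 and 111.1 CPM), ACTN2 (between 14.0 and 22.2) and NKX2-5 (between 3.03 and 9.49) were present. The cardiomyocyte markers summed to between 111.3 and 142 CPM in the NC group and between 75.2 and 103.2 in the SiCIRBP group. For 9 fibroblast or mesenchymal markers the sums were between 7631 and 7772 and between 7361 and 11819. Of these markers, VIM, COL1A1 and FN1 were the highest in every library, while LUM was at 0 CPM and DCN at 1.44 or less. Endothelial markers summed to at most 54.5 CPM and immune markers to at most 15.0 CPM in any library. The part of these shifts in the differences given next was not tested, and in bulk RNA fewer cells of a type and less RNA per cell cannot be told apart. SiCIRBP_2 stood apart by its 12 interferon response genes, with a sum of 5026 CPM. That sum was 253.6 in SiCIRBP_1 and 822 in SiCIRBP_3, and the NC group ranged from 443 to 470. The labels do not say whether the libraries came from separate cultures, so their spread may be partly technical.

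Of the 10 members, 9 had a lower fitted level in the SiCIRBP group and CREM had a higher one. The SIK1 and SIK1B sum was at 32.0% of the NC level over the 4 libraries, NR4A1 at 25.5%, NR4A2 at 13.6%, NR4A3 at 17.1% and PDE4D at 26.6%. SIK3 was at 53.6% of NC, SIK2 at 69.5% and CRTC2 at 76.9%. All 10 members passed the filter on low counts. Lower values with an adjusted p-value under 0.05 and at least a 2-fold change were found for 6 members, where 1.80% of the 15421 genes tested were called in this way, and for 8 members at any size, where 9.76% of genes were. These counts take SIK1 and SIK1B apart although they share reads, and over all 6 libraries edgeR called 0 of the members, as it called 0.00% of all genes. Since the differences were known when the members were picked, nothing is read from those shares. The median log2 fold change of the members was -1.64 over 4 libraries and -1.27 over 6, against -0.00 and 0.01 over all genes tested.

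The SIK1 and SIK1B sum was at 103.1, 223 and 221 CPM in NC_1, NC_2 and NC_3. It was at 75.5, 85.9 and 66.7 CPM in SiCIRBP_1, SiCIRBP_2 and SiCIRBP_3. All SiCIRBP libraries lay below all NC libraries, but NC_1 was closer to the SiCIRBP libraries than to the other NC libraries. The log2 fold change was -1.64 (SE 0.09) over the 4 libraries and -1.26 (SE 0.28) over all 6. Counted apart, SIK1 gave -1.63 (SE 0.11) and SIK1B -1.65 (SE 0.09) over the 4 libraries. As their shared reads are divided by estimate, these values are not independent of each other or of the sum.

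SIK3, a broadly expressed kinase of the family (chr11:116843402-117098437, minus strand), was at 77.8, 102.0 and 104.2 CPM in the NC libraries and at 58.5, 36.1 and 52.0 CPM in the SiCIRBP libraries. The groups did not overlap. Its log2 fold change was -0.90 (SE 0.09) over 4 libraries and -0.95 (SE 0.20) over 6, and the excluded SiCIRBP_2 held its lowest value. SIK2, a kinase known from fat cells (chr11:111602391-111730853, plus strand), was at 46.3, 59.8 and 61.9 CPM in the NC libraries. In SiCIRBP_1, SiCIRBP_2 and SiCIRBP_3 it was at 46.3, 31.7 and 38.2 CPM, so that NC_1 and SiCIRBP_1 coincided and the groups overlapped. The log2 fold change of SIK2 was -0.53 over 4 libraries (SE 0.12) and over 6 (SE 0.18). Whether the kinases differ from each other in their response was not tested, because the difference of SIK1 and SIK1B was known when they were picked.

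CRTC2, a coactivator that SIKs hold in the cytoplasm (chr1:153947669-153958625, minus strand), was at 63.8, 74.1 and 82.3 CPM in the NC libraries. The SiCIRBP libraries were at 56.2, 65.1 and 64.2 CPM, which overlap with NC_1. The CRTC2 log2 fold change was -0.38 (SE 0.11) over 4 libraries and -0.25 (SE 0.13) over 6. In TPM, a level per transcript length, NC_1 was instead the highest library for CRTC2, at 58.7 against 46.9 in NC_2 and 55.1 in NC_3, and the SiCIRBP libraries at 34.5, 40.97 and 42.9 lay below all of them. The transcript length implied by counts per TPM differed between libraries. It was 0.77 times the 6-library mean of CRTC2 in NC_1 and between 0.96 and 1.12 times in the other libraries. The largest to smallest ratio of 1.46 compares with a median of 1.12 and a 90th percentile of 1.43 over 11183 genes.

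CREM (chr10:35126791-35212958, plus strand) was the exception in direction. It was at 6.24, 6.91 and 6.23 CPM in the NC libraries and at 7.53, 10.9 and 8.91 CPM in the SiCIRBP libraries, and these did not overlap. SiCIRBP_2, the library with the interferon signature, was highest. The log2 fold change was 0.32 (SE 0.17) over 4 libraries and 0.50 (SE 0.19) over 6. In TPM the groups overlapped, with 12.3, 14.7 and 12.4 in the NC libraries against 12.8, 18.0 and 15.8 in the SiCIRBP libraries. On the scale log2(TPM + 1), the difference over the 4 libraries was 0.07. The gene-level counts do not separate ICER from the longer CREM products.

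PDE4D, which degrades cAMP (chr5:58969038-60522120, minus strand), was at 35.4, 77.7 and 77.9 CPM in the NC libraries. It was at 17.1, 20.2 and 24.3 CPM in the SiCIRBP libraries, all below NC_1. The log2 fold change was -1.91 (SE 0.17) over 4 libraries and -1.63 (SE 0.30) over 6.

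The NR4A receptors are the early targets among the members. NR4A1 (chr12:52022832-52059507, plus strand) was at 15.9, 32.0 and 32.5 CPM in the NC libraries and at 8.87, 10.4 and 7.55 CPM in the SiCIRBP libraries, without overlap. The log2 fold change of NR4A1 was -1.97 (SE 0.13) over 4 libraries and -1.59 (SE 0.28) over 6. NR4A3 (chr9:99821855-99866891, plus strand) was at 1.47, 5.90 and 5.58 CPM in the NC libraries and at 0.99, 1.24 and 0.96 CPM in the SiCIRBP libraries, again without overlap, although NC_1 exceeded SiCIRBP_2 only narrowly. For NR4A3 the log2 fold change was -2.55 (SE 0.24) over 4 libraries and -2.01 (SE 0.50) over 6. NR4A2 (chr2:156324432-156342348, minus strand) was at 1.30, 5.36 and 6.002 CPM in the NC libraries and at 0.75, 1.67 and 0.78 CPM in the SiCIRBP libraries. SiCIRBP_2 lay above NC_1 for NR4A2, so that the groups overlapped once the excluded libraries were counted. The log2 fold change of NR4A2 was -2.88 (SE 0.25) over 4 libraries and -1.98 (SE 0.59) over 6. NR4A2 rested on 22 to 43 estimated counts in the SiCIRBP libraries and NR4A3 on 27 to 32, and their counting error is larger than that of the other members.

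**Figure D2:**
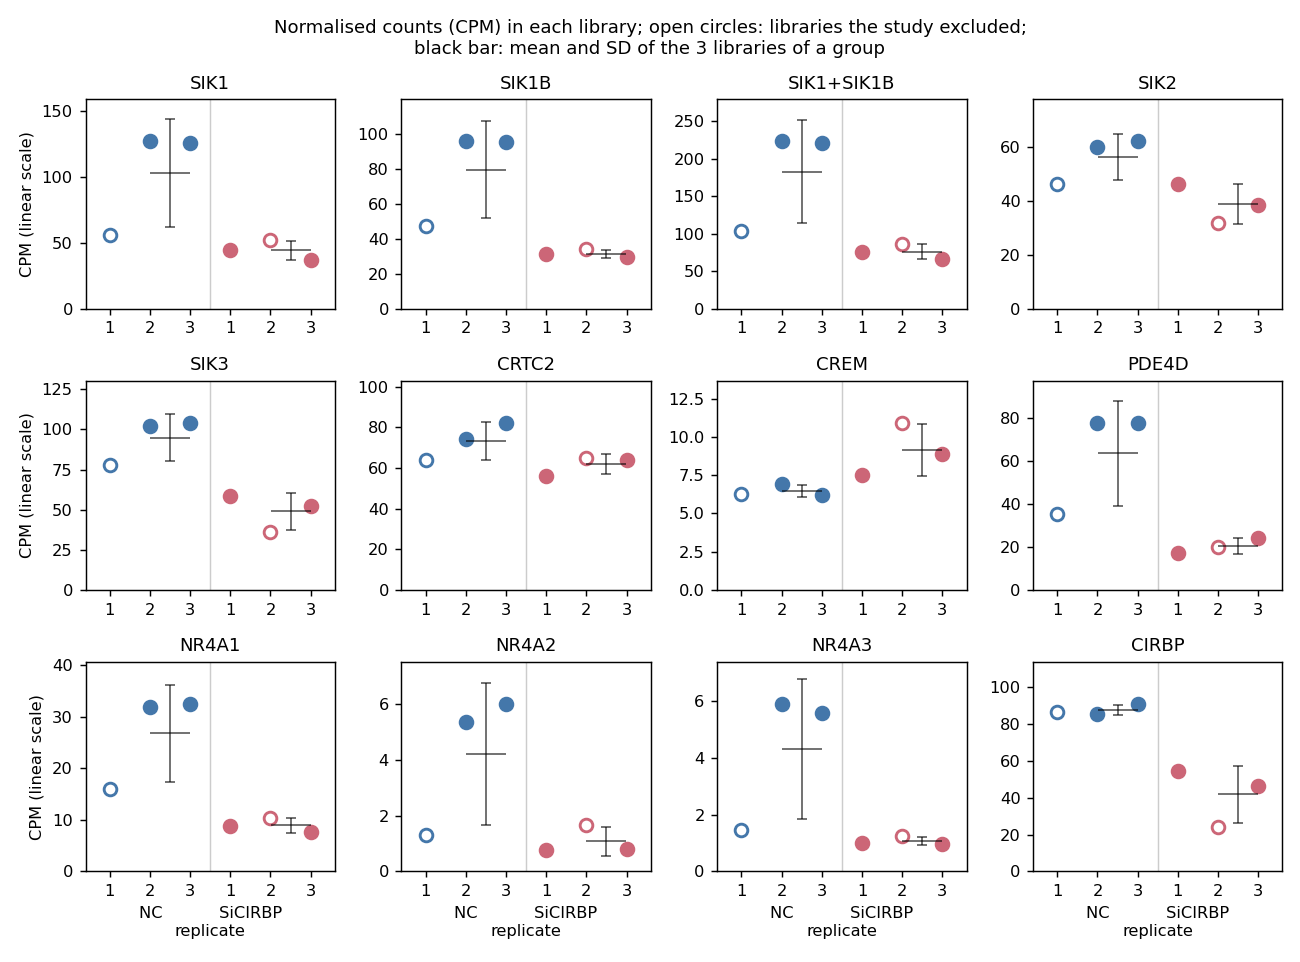
Normalised counts (CPM, linear axes from 0) of the members, of the SIK1 and SIK1B sum and of CIRBP in each of 6 libraries, with NC in blue and SiCIRBP in red. Open circles are NC_1 and SiCIRBP_2, which the study excluded, and black bars give the mean and SD of 3 libraries. For the SIK1 and SIK1B sum, NC_1 at 103.1 lies nearer to the SiCIRBP libraries than to NC_2 at 223, whereas for CIRBP it lies with the NC libraries.

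Over all 6 libraries, the 3 SiCIRBP values of 6 members were all below the 3 NC values (SIK1, SIK1B, SIK3, PDE4D, NR4A1 and NR4A3). Among the 15217 genes tested over 6 libraries, 16.6% did so. CREM lay higher in every SiCIRBP library, as did 16.2% of genes, and SIK2, CRTC2 and NR4A2 overlapped. As the members were picked with this contrast known, nothing is read from the counts.

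The excluded libraries were set against the kept ones. On a scale where 0 is the log2 mean of NC_2 and NC_3 and 1 that of SiCIRBP_1 and SiCIRBP_3, NC_1 was at 0.67 for the SIK1 and SIK1B sum, 0.51 for NR4A1, 0.74 for NR4A2, 0.77 for NR4A3 and 0.59 for PDE4D. For SIK2, SIK3 and CRTC2 it was at 0.74, 0.45 and 0.77. For CIRBP itself NC_1 was at 0.04. NC_1 therefore had the CIRBP level of the NC group and levels of the SIK and NR4A genes that were intermediate. On the same scale the excluded SiCIRBP_2 was at 0.83 for the SIK1 and SIK1B sum, 0.83 for NR4A1, 0.61 for NR4A2, 0.86 for NR4A3 and 1.01 for PDE4D. It was at 1.68 for SIK3, 1.76 for SIK2 and 2.29 for CIRBP, beyond the kept SiCIRBP libraries, but at 0.69 for CRTC2. For CREM, NC_1 was at -0.23 and SiCIRBP_2 at 2.30. SiCIRBP_2, the library with the least CIRBP, did not have the least SIK1 or NR4A1, while it had the least SIK2 and SIK3. This library also had the interferon signature, and a relation of the members to the CIRBP level was not tested.

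**Figure D3:**
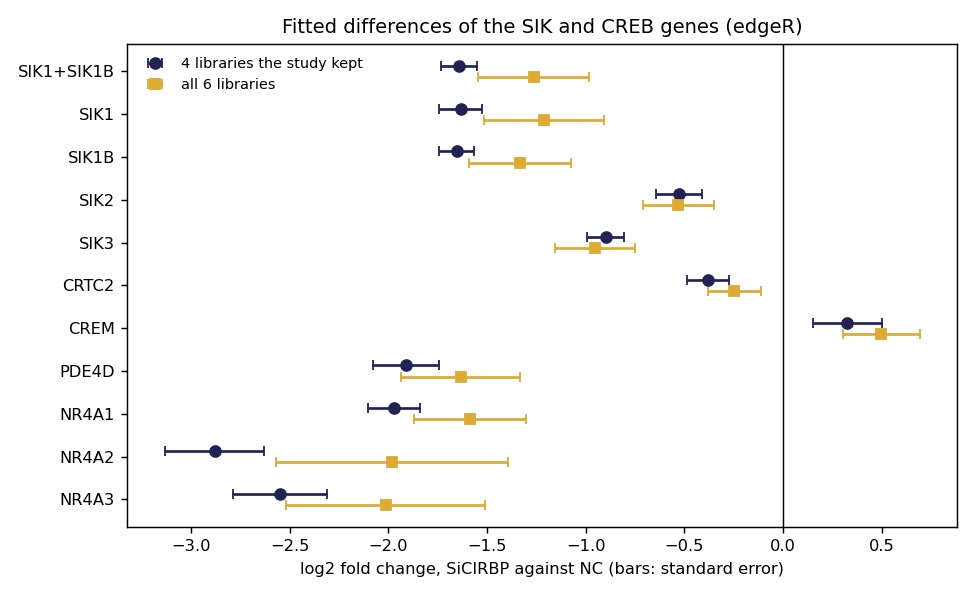
Log2 fold changes of the members and of the SIK1 and SIK1B sum, SiCIRBP against NC, fitted by edgeR over the 4 libraries the study kept (circles) and over all 6 (squares), with standard errors as bars. NR4A2 moves from -2.88 to -1.98 when NC_1 and SiCIRBP_2 are added, whereas SIK2 stays at -0.53 and CREM is the only member on the positive side.

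Levels between genes were compared in TPM, as mean ± SD of 3 libraries. In the NC group the SIK1 and SIK1B sum (55.6 ± 22.1 TPM) and CRTC2 (53.6 ± 6.04) were the highest and overlapped. SIK3 (24.6 ± 3.91), NR4A1 (18.3 ± 7.37), PDE4D (15.7 ± 6.26) and CREM (13.1 ± 1.35) followed, each overlapping the next. SIK2 (8.06 ± 1.36) lay below CREM, and NR4A2 (2.07 ± 1.29) and NR4A3 (1.09 ± 0.64) were lowest and overlapped. In the SiCIRBP group, CRTC2 (39.4 ± 4.41 TPM) lay above the SIK1 and SIK1B sum (20.6 ± 1.71) without overlap. CREM (15.5 ± 2.65) and SIK3 (12.7 ± 2.97) came next and overlapped. NR4A1 (6.29 ± 0.48), SIK2 (4.97 ± 1.20) and PDE4D (4.54 ± 1.13) followed, each overlapping the next, although NR4A1 and PDE4D did not overlap. NR4A2 (0.41 ± 0.18) and NR4A3 (0.25 ± 0.03) were again the lowest and were separated from each other only narrowly.

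The genes whose profile over the 6 libraries was most like that of the SIK1 and SIK1B sum were ZNF48, PHLDB2, NFIL3, RAPGEF2 and MEDAG, with Pearson correlations of log2(CPM + 1) between 0.995 and 0.998. These are over 6 libraries that fall into groups and are a description among 15217 genes. NFIL3, a bZIP repressor, was at 51.9, 79.7 and 79.5 CPM in the NC libraries and at 43.4, 46.0 and 37.5 CPM in the SiCIRBP libraries. RAPGEF2, an exchange factor for RAP GTPases, was at 25.8, 33.1 and 31.7 CPM and then at 23.9, 24.7 and 22.5 CPM. Among the members outside the sum, NR4A1 had the correlation of highest rank (0.991, rank 13), followed by NR4A3 (0.991, rank 15), NR4A2 (0.978, rank 63) and PDE4D (0.958, rank 164). CRTC2 ranked 797 with 0.877, SIK2 and SIK3 ranked 1210 and 1212 with 0.836 and 0.835, and CREM had -0.604.

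The rest of the pathway was described with 8 lists of 97 other genes, of which 94 were matched by name and 77 were tested. The names PER1, PDE4A and PDE11A did not match a unique gene and were left out. These lists were chosen with earlier results of these data known, so nothing is read from their shares or medians. Over the 4 libraries, 25 of these fell and 3 rose at an adjusted p-value under 0.05 (edgeR's quasi-likelihood test, Benjamini-Hochberg over all genes), and 49 did not pass. Their median log2 fold change was -0.27, against -0.00 over all genes. Of all genes tested, 9.76% were called lower and 9.62% higher by this rule. With at least a 2-fold change, 9 of the 77 were called lower (1.80% of all genes) and 0 higher (1.82%). Of the 9, the CREB target genes were BDNF, IRS2, MAFF, STC1 and RGS2, and the others were CREBRF, ADCY7, PDE7B and NUAK2. Over all 6 libraries, edgeR called 0 of the 77 in either direction (0.00% of all genes), where it called 0 of 15217 genes, 3603 of which had an unadjusted p-value under 0.05. DESeq2 over the same 6 libraries called 16 of them lower (5.04% of all genes) and 3 higher (4.48%) at any size, and 3 lower (1.13%) and 1 higher (1.14%) with at least a 2-fold change. Fits with 1 kept library left out leave 1 library in a group. That library is assumed to vary like the other group, so counts from those fits are not compared with these.

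Among 24 tested CREB target genes, 11 fell and 2 rose over the 4 libraries. At an adjusted p-value under 0.05, edgeR called 9.76% of all genes lower and 9.62% higher. Over all 6 libraries it called 0 of the 24 in either direction. ATF3 and JUNB, named after their values were seen, were among the 11 but had log2 fold changes of 0.75 and 0.01 over 6 libraries. SiCIRBP_2 was their highest library, at 16.3 and 70.4 CPM. BDNF, a neurotrophin, was at 38.9, 80.7 and 80.6 CPM in the NC libraries and at 33.6, 39.5 and 33.2 CPM in the SiCIRBP libraries. Its log2 fold change over 4 libraries was -1.27 (SE 0.09, adjusted p = 0.00262 in edgeR; adjusted p = 0.121 over 6). IRS2, an adaptor of the insulin receptor, was at 41.1, 86.7 and 91.0 CPM in the NC libraries and at 39.4, 38.2 and 36.4 CPM in the SiCIRBP libraries. Its log2 fold change was -1.23 (SE 0.09, adjusted p = 0.00262 in edgeR; adjusted p = 0.121 over 6). In both genes NC_1 lay close to the SiCIRBP libraries, and for BDNF it lay below SiCIRBP_2. STC1, a secreted glycoprotein, was at 1.40, 2.45 and 2.79 CPM in the NC libraries and at 0.45, 0.93 and 0.75 CPM in the SiCIRBP libraries (log2 fold change -2.13, SE 0.36, adjusted p = 0.0139 in edgeR; adjusted p = 0.1002 over 6).

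Other CREB targets varied. MAFF, a small bZIP factor, was at 37.3 CPM in SiCIRBP_2, within the NC range of 25.9 to 42.3, and RGS2, a regulator of G-protein signalling, had under 2 CPM in every library. IER2, an early gene named after its values were seen, rose by 0.64 on the log2 scale (SE 0.09, adjusted p = 0.0082 in edgeR; adjusted p = 0.0958 over 6), from 56.3, 57.3 and 55.3 CPM to 90.3, 146.6 and 85.7. CITED2, likewise named afterwards, was the other CREB target that rose, by 0.32 (SE 0.09, adjusted p = 0.0496 in edgeR; adjusted p = 0.155 over 6). FOS and EGR1, textbook early genes, were also named after their values were seen. FOS, an AP-1 subunit, was at 4.80, 5.05 and 3.48 CPM in the NC libraries and at 2.67, 1.87 and 2.64 in the SiCIRBP libraries, without overlap. It did not pass over the 4 libraries (adjusted p = 0.111 in edgeR; adjusted p = 0.119 over 6) but passed in DESeq2 over 6 (adjusted p = 0.0392). EGR1 passed in neither tool (adjusted p = 0.260 in edgeR over 4 libraries, adjusted p = 0.0723 in DESeq2 over 6). BDNF, IRS2, STC1 and IER2 also passed in DESeq2 over 6 libraries (adjusted p = 0.0173, 0.0155, 0.0107 and 0.00209). MAFF, RGS2 and CITED2 did not pass in that fit (adjusted p = 0.303, 0.378 and 0.117). In edgeR over the 4 libraries, 11 of the 24 passed in neither direction.

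Among 10 tested cAMP phosphodiesterases other than PDE4D, 4 fell and 0 rose over the 4 libraries, where 9.76% of all genes fell and 9.62% rose. PDE7B, a cAMP-specific enzyme, was at 29.6, 33.3 and 32.7 CPM in the NC libraries and at 16.8, 20.0 and 15.9 CPM in the SiCIRBP libraries. Its log2 fold change was -1.01 (SE 0.11, adjusted p = 0.00572 in edgeR; adjusted p = 0.0869 over 6). PDE7B passed in DESeq2 over 6 libraries (adjusted p = 0.000115), where 5.04% of all genes were called lower. The other 3, named after their values were seen, were PDE3A (-0.94), PDE10A (-0.89) and PDE4B (-0.74), which passed there too. The groups did not overlap in these 4 genes over 6 libraries, as in 16.6% of all genes tested, lower in SiCIRBP. The 4 had already passed as lower in the kept libraries among these 6, so nothing is read from that. Among 7 tested adenylyl cyclases, which make cAMP, ADCY6 (-0.56, named after its values were seen) and the scarce ADCY7 (-1.25) fell and 0 rose. Of the 8 PKA subunits and inhibitors tested, the regulatory subunit PRKAR1B, named after its values were seen, rose by 0.78 (log2 scale, SE 0.15). Its adjusted p-value in edgeR was 0.0184 over 4 libraries and 0.0885 over 6, and in DESeq2 over 6 it was 0.00175. The other PKA genes passed in none of these fits.

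Among 8 tested genes of CREB and its coactivators, 3 fell over the 4 libraries, where 9.76% of all genes were called lower. CRTC3, the sister of CRTC2, was at 116.6, 155.2 and 154.8 CPM in the NC libraries and at 102.2, 56.0 and 81.0 CPM in the SiCIRBP libraries (log2 fold change -0.76, SE 0.12, adjusted p = 0.012 in edgeR; adjusted p = 0.110 over 6). CREBRF, a regulator of the related factor CREB3, had -1.45, and the histone acetyltransferase CREBBP had -0.46. CREB1 itself gave -0.41 and did not pass (adjusted p = 0.0574 in edgeR). In DESeq2 over 6 libraries, CRTC3 and CREBRF passed (adjusted p = 0.0116 and 0.0154). CREBBP and CREB1 did not pass in that fit (adjusted p = 0.0936 and 0.0667). None of 5 genes of the LKB1 complex passed in edgeR over the 4 libraries. Of 9 other LKB1-activated kinases, NUAK2 (-1.004), NUAK1 (-0.74) and BRSK1 (-0.69) fell over the 4 libraries. In SiCIRBP_2, however, NUAK1 was at 63.3 CPM, above the 3 NC libraries, and NUAK2 was at 54.3 CPM, above NC_1 at 46.2 (adjusted p = 0.204 for NUAK2 over 6 libraries in edgeR). Of 6 tested SIK substrates and partners, MEF2D (-0.95) and HDAC5 (-0.68) fell. CRTC3, CREBBP, CREB1, NUAK1, BRSK1, MEF2D and HDAC5 were named after their values were seen.

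**Figure D4:**
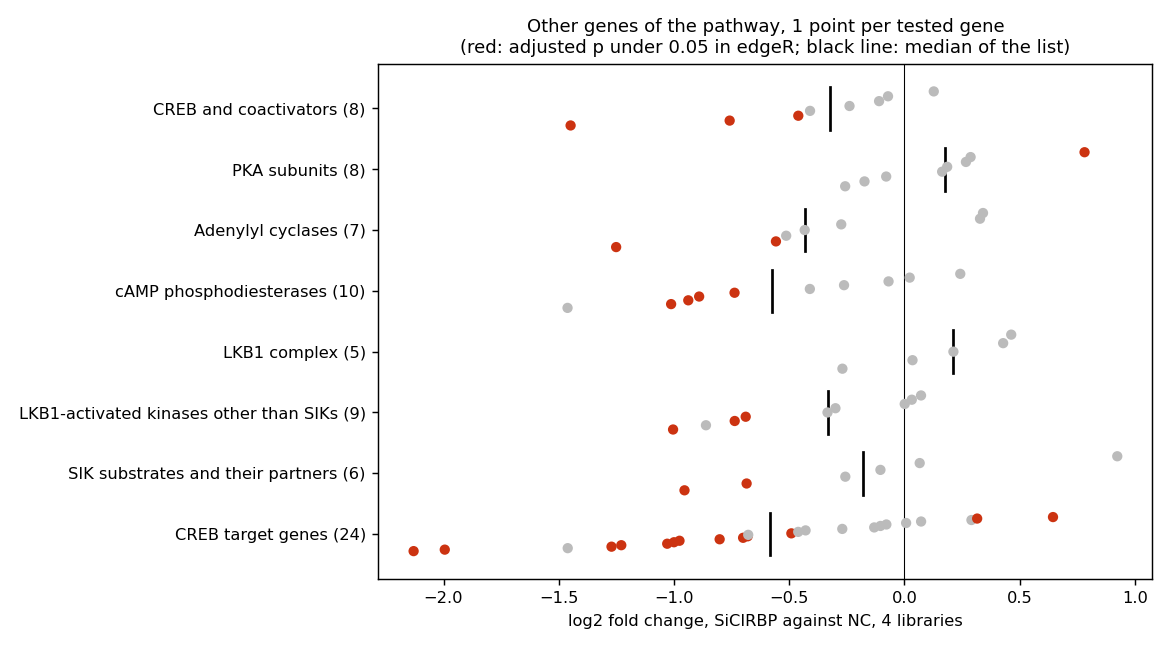
Log2 fold changes over the 4 kept libraries of 77 other genes in 8 lists of the pathway, 1 point per gene, with the number tested beside each list name. Red points have an adjusted p-value under 0.05 in edgeR and black lines mark list medians, which run from -0.58 for CREB target genes to 0.21 for the LKB1 complex, against -0.00 over all genes. Over all 6 libraries the CREB target median is -0.25, and the lowest is that of adenylyl cyclases at -0.58.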

How the data were processed

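RNA-seq was measured in 6 libraries. The authors deposited an estimated count (an RSEM expected count) per gene and library, without normalisation. TPM values, as deposited by the authors, were scaled to transcript length and library. The submitters' processing notes name fastp, HISAT, RSEM and the build hg38. Versions and annotation release are not given in the sources used here. Columns and a further table with the authors' own fold changes and p-values were not used.

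Rounded counts entered edgeR 4.0.16 under R 4.3.3 (TMM, filterByExpr, glmQLFit and glmQLFTest). A gene was called at a Benjamini-Hochberg adjusted p-value under 0.05, with or without at least a 2-fold change. The SE of a log2 fold change was derived from its size and its F value (size over root F). The 4 libraries the study kept were chosen by its authors from the same data, which makes these p-values optimistic. SIK1 and SIK1B were also added into 1 row before fitting. Implied length was counts per TPM, relative to the 6-library mean of a gene and then to the median gene of a library, for genes with at least 1 TPM and 50 counts in every library. Transcripts were aligned with edlib 1.3.9.post1, and locations are from GENCODE 29, which held 58611 of the identifiers. DESeq2 1.42.0, RLE factors, other filters, left-out libraries and a replicate block were alternatives. The procedures were tested on simulated counts with the same dispersion for every gene and no outlying library. These data differ in that, so the test does not cover the effect of NC_1 and SiCIRBP_2.

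The members and lists were chosen with earlier results of these data known. The genes named include the members, CIRBP and the cell type markers. Also named are listed genes past both thresholds, at most 5 per list, and the 5 genes most correlated with the SIK1 and SIK1B sum. Others are marked as named afterwards.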

Additional observations from a re-analysis of the deposited data

How the results depend on the processing

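The direction of all 10 members held in each of 140 refits or rescaled values, of which 118 moved by less than the replicate spread and 22 moved further. Most of these used only the 4 kept libraries. In every fit over all 6 libraries, SIK1, SIK1B, NR4A1, NR4A2 and NR4A3 moved further than the spread, to smaller differences. The largest move of any member was that of NR4A3, which gave -0.99 as log2(TPM + 1) but -2.22 as log2(TPM + 0.1). NR4A3 lay between 0.23 and 1.47 TPM, so that adding 1 shrinks its difference. The SIK1 and SIK1B sum gave -1.26 over all 6 libraries, -1.19 with the replicate block and -1.26 in DESeq2 over 6 libraries, and between -1.74 and -1.56 with 1 library left out.

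Counts were less stable. Over all 6 libraries, edgeR called 0 genes higher and 0 lower among all genes and in the lists, also at any size. With the replicate block it called 1 higher and 0 lower among all genes and 0 in the lists. Correlations of deviations between NC and SiCIRBP libraries of the same replicate number were -0.118, 0.006 and -0.026. With 3 libraries per group, NC_1 and SiCIRBP_2 among them, these values cannot tell whether replicate numbers pair the libraries. For all genes called higher, DESeq2 over 4 libraries gave 169 and no filter on low counts gave 468, against 281. DESeq2 over 6 libraries, added after seeing the data, called 162 higher and 160 lower among all genes, and 1 higher and 3 lower in the lists (16 lower at any size). With 1 kept library left out, which leaves 1 library in a group that is assumed to vary like the other group, genes called higher ranged from 24 to 618 and lower from 37 to 558. In the lists the ranges were 0 to 1 higher and 2 to 13 lower, or 0 to 11 and 2 to 39 at any size. The cause was not tested. NR4A2 and NR4A3 had the lowest counts of the members.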
